A study of Homo sapiens with 6 samples.

Results

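The genes described here encode the actin cytoskeleton and proteins that bend membranes. They were chosen by name: a gene was a member if its symbol in the deposited table was that of an actin, an actin-related protein, an Arp2/3 subunit, an alpha-actinin, a filamin, a tropomyosin, a myosin light chain, a non-muscle or unconventional myosin, a cofilin, a capping protein, a profilin, a thymosin, a PDLIM or related LIM protein, vinculin, a talin, ezrin, moesin or one of BIN1 to BIN3. The rule used no measured value. It found 102 genes with 154 probes among the 30567 gene names on the array, and 71 of the 102 were detected well enough to be tested, beside 13717 genes tested in all.

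The measurements are probe signals of Illumina BeadChips hybridised with RNA from PANC-1, a long-used cell line from a human pancreatic carcinoma. The cells of all 6 samples had received a small interfering RNA, either a control (siControl, 3 samples) or an siRNA against the orphan nuclear receptor NR4A1 (siNR4A1 in the series' design text, written siTR4A1 in the sample labels, 3 samples). The labels give no dose, no time after transfection and do not say whether replicates were grown separately. The p-values thus cover just the spread among these samples, and that spread may be technical. All samples are of a single cell line with a single target, which limits them as a model.

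Actin monomers assemble into filaments that give a cell its shape, its adhesion and its means of movement. Profilins and thymosins hold the monomers, the Arp2/3 complex starts branches, capping protein ends growth and cofilins sever old filaments. Alpha-actinins and filamins crosslink filaments, myosins pull on them, tropomyosins coat them, and vinculin, talins and ezrin tie them to adhesions and to the membrane. BIN proteins carry a BAR domain, a curved dimer that binds and bends membranes. In pancreatic cancer cells this machinery is best known for its part in migration and invasion.

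The arrays had 18231 to 20407 detected probes and a mean signal of 332 to 623; the number of arrays limits the precision. The 3 NR4A1 probes were below detection on all 6 arrays, and their signals gave p-values of 0.8, 0.4 and 0.6 in exact two-sided permutation tests, which cannot go under 0.1 with 3 arrays a group. No direction is therefore given for the target itself. Of 8 epithelial and duct markers KRT8, KRT18, KRT19 and EPCAM were detected, while KRT7, KRT17, CDH1 and CLDN4 were not. None of the 4 detected changed. The normalized signal summed over all 8, detected or not, was 1093 to 1267 in siControl and 1103 to 1211 in siNR4A1. Of 5 mesenchymal markers VIM, CDH2 and SNAI2 were detected, and none of these changed. The sums over all 5 were 17627 to 23137 in siControl and 21442 to 22794 in siNR4A1. VIM made up most of them, with a mean log2 signal of 14.33 in siControl and 14.41 in siNR4A1. Among markers of other cells, 3 of 20 for striated muscle were detected, 4 of 10 for smooth muscle and fibroblasts, 4 of 10 for blood cells (white and red) and 0 of 5 for endothelium. Genes below detection add background signal to each sum, so lists of different length cannot be compared by their sums. The normalized signal summed over all 20 muscle markers lay between 1671 and 1806 in siControl and between 1657 and 1873 in siNR4A1. That of smooth muscle and fibroblasts lay at 804 to 897 and 848 to 914, and that of endothelium at 339 to 380 and 334 to 361. Of the smooth muscle and fibroblast markers SMTN rose by 0.44, while COL1A1, COL1A2 and COL3A1, at 0.17, -0.08 and -0.15, did not change. The sum for blood cells was higher in siNR4A1, at 4967 to 5463 against 3616 to 3814. On the log2 scale the monocyte and macrophage genes CD68 and CD14 were higher by 0.58 and 0.44. HBA1, the red cell gene of haemoglobin alpha, was higher by 0.40, while LYZ, at -0.08, did not change. CD68 made up most of the sum, with a mean log2 signal of 11.54 in siControl and 12.12 in siNR4A1. The pan-leukocyte gene PTPRC was below detection. The part of these markers in the results was not tested, and in bulk RNA fewer cells of a type and less RNA per cell cannot be told apart.

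Tests in limma, two-sided, on normalized log2 signals, adjusted by Benjamini-Hochberg over all 13717 genes with a threshold of 0.05, called 18 of the 71 tested members, or 25.4%. The same test called 19.5% of all genes tested. Of the members 5 rose in siNR4A1 (7.04%, against 10.8% of all genes) and 13 fell (18.3%, against 8.7% of all genes). The members that rose were BIN1, FLNC, ARPC5L, MYO9A and PDLIM1. Those that fell were EZR, TPM3, ACTN1, MYO10, MYL6B, MYL12A, ARPC3, LIMA1, MYO6, ACTA2, PFN2, MYH9 and TLN1. The remaining 53 lay between -0.38 and 0.31 on the log2 scale and missed the threshold. With the medians of detected probes equalized in place of quantile normalization, 3 members rose and 3 fell, 4.23% each way, against 5.04% and 4.10% of all genes. With an offset of 16 in the background correction 6 members fell (8.45%, against 6.84% of all genes). With whole-array medians equalized 0 of all genes passed, where 1089 had an unadjusted p under 0.05, 5 of them members.

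The number of members that fell also depended on single arrays. Without siControl replicate 1 it was 4 (5.63%, against 6.56% of all genes), and without siControl replicate 2 it was 7 (9.86%, against 7.52%). It was 6 without siNR4A1 replicate 1 (8.45%, against 6.17%), 6 without siNR4A1 replicate 2 (8.45%, against 6.04%) and 5 without siNR4A1 replicate 3 (7.04%, against 5.38%). Without siControl replicate 3 it was 16 (22.5%, against 9.41%). The share of members that fell was thus near that of all genes in several of these fits and below it in that without siControl replicate 1.

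Whatever their test, 43 tested members were lower and 28 higher in siNR4A1, and their median log2 change was -0.08, beside 0.02 for all genes. With whole-array medians equalized the members' median turned to 0.08, while that of all genes moved to 0.13. The 3 arrays of one group lay entirely on one side of the other 3 for 29 members (40.8%, against 35.4% of all genes), with siNR4A1 lower for 20 and higher for 9; for all genes these shares were 15.6% lower and 19.8% higher. The members' median SD between replicates was 0.13 on the log2 scale in siControl and 0.10 in siNR4A1, against 0.14 and 0.11 over all genes.

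**Figure D1:**
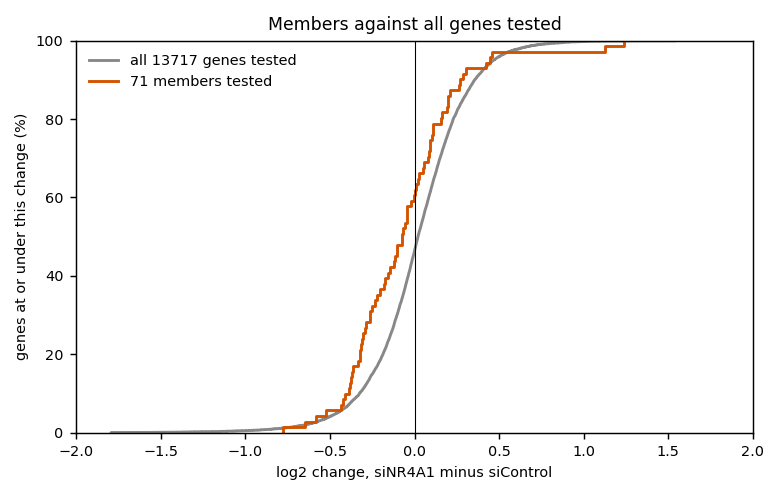
Share of genes (vertical axis, percent) at or under each log2 change of siNR4A1 against siControl (horizontal axis), for the 71 tested members and for all 13717 genes tested. The members' curve runs to the left of the other around 0, with medians of -0.08 and 0.02, and has 2 members at the far right, FLNC and BIN1.

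BIN1, FLNC and EZR had the largest changes with groups far apart. BIN1 encodes amphiphysin II, which bends membranes into tubules. Its normalized log2 signal was 8.58, 8.07 and 8.70 in the siControl replicates 1 to 3 and 9.81, 9.51 and 9.74 in those of siNR4A1. The lowest siNR4A1 array stood above the highest siControl array by 0.81. The log2 change was 1.24 ± 0.15 (SE, n = 3 per group), or 2.35-fold, at an adjusted p of 2.51e-05.

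FLNC encodes filamin C, the filamin of striated muscle Z-discs, which crosslinks actin. Its log2 signals were 10.80, 11.09 and 11.22 in siControl and 12.09, 12.19 and 12.21 in siNR4A1. The groups were separated by 0.86, more than the spread within either. FLNC rose by 1.13 ± 0.12 (SE, n = 3 per group), or 2.18-fold (adjusted p = 9.96e-06).

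EZR encodes ezrin, the linker between cortical actin and membrane proteins of microvilli and ruffles. Its log2 signals were 12.47, 12.66 and 12.62 in siControl and 11.73, 11.84 and 11.84 in siNR4A1, so that every siNR4A1 array lay below every siControl array. EZR fell by 0.78 ± 0.11 (SE, n = 3 per group), or 1.71-fold (adjusted p = 0.000116). A probe listed under VIL2, an older symbol of the same gene, was not among the members by the rule. That probe stood at 11.69, 11.81 and 11.89 in siControl and at 11.00, 11.22 and 11.02 in siNR4A1. It fell by 0.72 ± 0.11 (SE), with an adjusted p of 0.00064 over all probes.

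The promoters of these 3 genes are shown because BIN1 and FLNC rose most among the members and EZR fell most. Each runs from 250 bases before to 50 bases after the gene's start in RefSeq's GRCh38.p14 annotation, 5′ to 3′ on the gene's strand. Capitals mark GC boxes, the letters GGGCGG on either strand, to which SP-family factors bind. Neighbouring boxes can touch or overlap, and a longer run in capitals then covers several.
BIN1 (chr2:127107105-127107404, - strand): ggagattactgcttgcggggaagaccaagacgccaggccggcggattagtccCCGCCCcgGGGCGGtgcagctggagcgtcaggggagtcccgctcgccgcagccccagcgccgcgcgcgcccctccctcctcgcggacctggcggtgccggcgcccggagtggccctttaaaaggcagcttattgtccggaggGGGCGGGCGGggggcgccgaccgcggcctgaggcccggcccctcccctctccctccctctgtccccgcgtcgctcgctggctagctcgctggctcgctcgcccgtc
FLNC (chr7:128830156-128830455, + strand): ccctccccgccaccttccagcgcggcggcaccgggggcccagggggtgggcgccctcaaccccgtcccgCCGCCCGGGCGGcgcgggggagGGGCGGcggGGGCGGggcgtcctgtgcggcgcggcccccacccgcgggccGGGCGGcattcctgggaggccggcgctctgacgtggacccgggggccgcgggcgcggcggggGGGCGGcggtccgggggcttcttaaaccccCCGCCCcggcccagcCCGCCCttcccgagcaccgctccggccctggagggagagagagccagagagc
EZR (chr6:158818186-158818485, - strand): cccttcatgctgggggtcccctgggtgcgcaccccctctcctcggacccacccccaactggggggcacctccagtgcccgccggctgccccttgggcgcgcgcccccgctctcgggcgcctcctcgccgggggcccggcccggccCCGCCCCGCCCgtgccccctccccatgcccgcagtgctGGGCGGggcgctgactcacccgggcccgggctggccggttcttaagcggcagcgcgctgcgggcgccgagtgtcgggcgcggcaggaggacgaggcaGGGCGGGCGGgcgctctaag
The BIN1 window held 4 GC boxes, that of FLNC 8 and that of EZR 5.

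RefSeq promoters were matched by symbol for 87 of the 102 members, with 115 starts among them. A GC box stood in 75.7% of these windows and in 82.8% of those of tested members. It stood in 66.8% of the windows of all genes tested and in 45.0% of all 35116 promoter windows. It stood in 5 of 5 windows of the members that rose, from 5 genes. Of the members that fell it stood in 14 of 20 windows, from 12 genes, some with several starts. Each of these 12 genes had a GC box in at least 1 of its windows, so the shares differed by window and not by gene. No test was made of this. The TATA box, searched as TATAAA on both strands, was in 6.09% of the member windows and 2.30% of those of tested members. It was in 6.07% of the windows of all genes tested and 11.5% of all windows. The NBRE, the element AAAGGTCA that NR4A receptors bind as monomers, was searched on both strands as well. It was in 0 of the 115 member windows, in 0.791% of those of all genes tested and in 1.22% of all windows, and no match says only that these letters are not in these windows.

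The CArG box, the site of serum response factor (SRF), was found in 10 of the 115 member windows, or 8.70%, against 1.29% of all windows. Among the tested members' windows it was in 5.75%, against 1.12% for all genes tested. The 15 members without a matched window, ACTB among them, were not searched. The genes with the box were 5 tested members (ACTG1, ACTN1, FLNA, MYO1E and TPM4) and 5 that were below detection (ACTA1, ACTC1, ACTG2, MYL7 and MYO1A). The tested ones are printed with 10 bases on either side, since the element is known from the promoters of actin genes; capitals mark the box.
ACTG1 (chr17:81512874-81512903, - strand): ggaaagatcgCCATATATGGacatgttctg
ACTN1 (chr14:68977718-68977747, - strand): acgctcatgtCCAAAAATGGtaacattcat
FLNA (chrX:154374709-154374738, - strand): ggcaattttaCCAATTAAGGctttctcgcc
MYO1E (chr15:59372883-59372912, - strand): gctgagttctCCATTTATGGacagattgcc
TPM4 (chr19:16067355-16067384, + strand): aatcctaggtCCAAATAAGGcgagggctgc
The box began 94 bases before the start in ACTG1 and FLNA, 171 in ACTN1, 31 in MYO1E and 173 in TPM4. Of these 5 genes only ACTN1 passed the test, which called 19.5% of all genes. The log2 change of ACTN1 was -0.58, beside -0.32 for TPM4, -0.08 for MYO1E, 0.05 for FLNA and 0.20 for ACTG1. ACTN1 and TPM4 have several starts, each with the box at only 1 of them, and the array does not say which start was used.

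**Figure D2:**
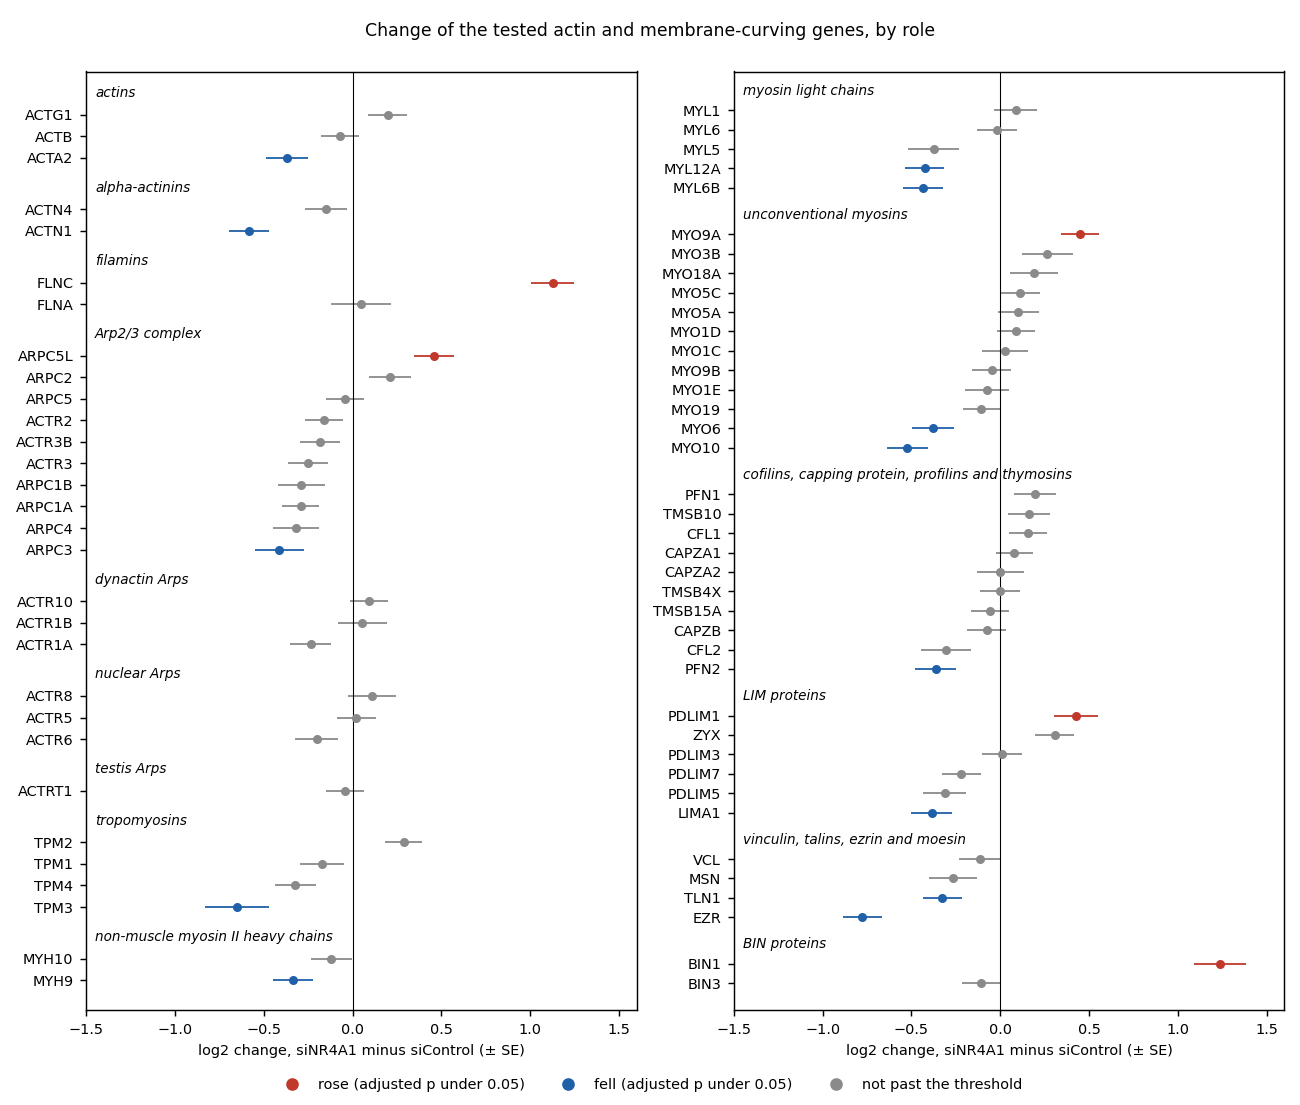
Log2 change of siNR4A1 against siControl for 69 of the 71 tested members (points, with SE bars), grouped by role, with rises past the adjusted p of 0.05 in red, falls in blue and all others in grey. FLNC and BIN1 stand alone to the right at 1.13 and 1.24, and EZR lies farthest left at -0.78.

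Among the actins themselves, 3 of 7 were detected. ACTB, the cytoplasmic beta-actin, had a log2 change of -0.07 ± 0.11 (SE) with the probe that stands for it, and -0.20 and -0.22 with its 2 others, none past the threshold. ACTG1, the cytoplasmic gamma-actin, had 0.20 ± 0.11 (SE) by its main probe, while its second probe was lower by 0.52 ± 0.16 (SE; adjusted p = 0.0358 over all probes). That second probe stood at 13.21, 13.66 and 12.98 in siControl and at 12.82, 12.95 and 12.52 in siNR4A1, without overlap. The direction of ACTG1 thus differed between its probes. These genes have many near-identical copies in the genome, and cross-hybridization was not tested.

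ACTA2, the smooth muscle alpha-actin that also marks activated fibroblasts, read 7.15, 7.39 and 7.52 in siControl and 6.96, 6.91 and 7.09 in siNR4A1. The groups were 0.06 apart. ACTA2 fell by 0.37 ± 0.12 (SE, n = 3 per group; adjusted p = 0.0381). The striated muscle actins ACTA1 and ACTC1, the enteric smooth muscle actin ACTG2 and ACTBL2 were below detection on all arrays.

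Among the crosslinkers, ACTN1, the non-muscle alpha-actinin of stress fibres and adhesions, stood at 10.61, 10.85 and 10.62 in siControl and at 10.18, 10.15 and 10.001 in siNR4A1. The groups were 0.43 apart. ACTN1 fell by 0.58 ± 0.11 (SE), or 1.497-fold (adjusted p = 0.00189). ACTN4, the other non-muscle form, differed by -0.15 ± 0.12 (SE) and did not pass, and the muscle forms ACTN2 and ACTN3 were not detected. Beside FLNC, which rose, FLNA, the most widely expressed filamin in human tissues, had a log2 change of 0.05 ± 0.17 (SE) with overlapping arrays. The FLNA probe was dim here, with a mean log2 signal of 7.10 in siControl, where FLNC had 11.04. The difference between FLNC and FLNA was not tested.

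All 10 Arp2/3 genes were tested. This complex, built from ACTR2, ACTR3 and the ARPC subunits, nucleates branched filaments at the leading edge. ARPC5L, an alternative to ARPC5, stood at 9.81, 10.01 and 9.81 in siControl and 10.32, 10.23 and 10.46 in siNR4A1. All siNR4A1 arrays lay above all siControl arrays, and ARPC5L rose by 0.46 ± 0.11 (SE, n = 3 per group; adjusted p = 0.00886). Its counterpart ARPC5 differed by -0.04 ± 0.10 (SE). ARPC3, another subunit, read 11.96, 12.16 and 11.58 in siControl and 11.51, 11.61 and 11.34 in siNR4A1. The third siControl array lay within the siNR4A1 range, so the groups overlapped. ARPC3 fell by 0.41 ± 0.14 (SE; adjusted p = 0.044).

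The other 8 subunits did not pass. ARPC2 stood at 0.21, and ACTR2, ACTR3B, ACTR3, ARPC1B, ARPC1A and ARPC4 stood between -0.16 and -0.32. Of these ARPC1A was nearest the threshold, at -0.29 ± 0.11 (SE; adjusted p = 0.0613). Its arrays lay at 11.50, 11.46 and 11.49 in siControl and at 11.25, 11.21 and 11.12 in siNR4A1, without overlap. The median over the 10 subunits was -0.22, beside 0.02 for all genes, and 8 were lower. With whole-array medians equalized the median of the subunits was -0.03, beside 0.13 for all genes, and 6 were lower. With the medians of detected probes equalized it was -0.18, beside -0.02 for all genes, and 7 were lower.

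Actin-related proteins outside the Arp2/3 complex did not pass. ACTR1A, ACTR1B and ACTR10 belong to dynactin, the partner of the dynein motor, and had log2 changes of -0.24, 0.05 and 0.09. ACTR1A, with the smallest p of them, stood at 10.10, 10.22 and 10.18 in siControl and at 10.09, 9.73 and 9.97 in siNR4A1 (adjusted p = 0.173). ACTR5, ACTR6 and ACTR8, which belong to chromatin remodelling complexes, had 0.02, -0.20 and 0.11. For ACTR6 the values were 8.60, 8.86 and 8.90 in siControl and 8.57, 8.75 and 8.44 in siNR4A1, and the groups overlapped. The testis protein ACTRT1 had -0.04 ± 0.11 (SE), with arrays between 6.49 and 6.65, and ACTRT2 was not detected.

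All 4 tropomyosins were tested. TPM3 read 10.82, 10.99 and 10.15 in siControl and 10.27, 10.06 and 9.68 in siNR4A1. The third siControl array lay within the siNR4A1 range. TPM3 fell by 0.65 ± 0.18 (SE, n = 3 per group; adjusted p = 0.0185), with the largest SE of the 71 tested members. A second TPM3 probe, detected on 5 arrays, had -0.09 ± 0.12 (SE). TPM2 and TPM4, of which TPM2 is best known from slow muscle and stress fibres, had 0.29 ± 0.11 (SE; adjusted p = 0.0655) and -0.32 ± 0.12 (SE; adjusted p = 0.0611), each without overlap but on opposite sides. Both genes had a further probe of opposite sign. TPM1 lay between -0.19 and -0.14 on all 3 probes and did not pass.

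The non-muscle myosin II motor joins heavy chains with light chains, and genes of both kinds fell. The heavy chain MYH9 stood at 11.94, 11.96 and 11.76 in siControl and 11.46, 11.70 and 11.51 in siNR4A1. The groups were 0.07 apart. MYH9 fell by 0.33 ± 0.11 (SE), just inside the threshold (adjusted p = 0.0477). Its 2 probes gave -0.33 and -0.35 but missed the threshold when all probes were tested (adjusted p = 0.059 and 0.118). MYH10 differed by -0.12 ± 0.11 (SE), and MYH14 was detected on 1 array at most and not tested.

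The regulatory light chain MYL12A read 13.26, 13.07 and 13.15 in siControl and 12.66, 12.75 and 12.79 in siNR4A1. The groups were 0.28 apart, and MYL12A fell by 0.42 ± 0.11 (SE; adjusted p = 0.0114). It is nearly identical to MYL12B, from which its probe was not told apart here. MYL6B, an essential light chain, stood at 10.63, 10.47 and 10.53 in siControl and at 9.99, 10.08 and 10.25 in siNR4A1. The groups did not overlap, and MYL6B fell by 0.44 ± 0.11 (SE; adjusted p = 0.0118). Its close relative MYL6 differed by -0.02 ± 0.11 (SE), MYL5 by -0.38 ± 0.14 (SE; adjusted p = 0.0756) and the fast muscle chain MYL1, detected on 3 arrays, by 0.09. The cardiac chains MYL2, MYL3, MYL4 and MYL7 were not detected, and the smooth muscle chain MYL9 was detected on 2 arrays at most.

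Unconventional myosins move cargo and link membranes to actin. Of 25 on the array 13 were tested. Of these 1 rose (7.69%, against 10.8% of all genes) and 2 fell (15.4%, against 8.7% of all genes). MYO10, the motor of filopodium tips, read 11.59, 11.38 and 11.36 in siControl and 10.74, 11.01 and 11.00 in siNR4A1. The groups were 0.35 apart. MYO10 fell by 0.52 ± 0.12 (SE), or 1.44-fold (adjusted p = 0.00513). MYO6, the motor that walks toward filament minus ends and serves endocytosis, read 7.85, 7.48 and 7.61 in siControl and 7.18, 7.29 and 7.33 in siNR4A1. All siNR4A1 arrays were lower, and MYO6 fell by 0.38 ± 0.12 (SE; adjusted p = 0.0322).

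MYO9A, a class IX myosin that carries a GTPase-activating domain, stood at 7.45, 7.64 and 7.62 in siControl and at 8.03, 8.02 and 7.99 in siNR4A1. The 3 siNR4A1 arrays lay close together above all siControl arrays. MYO9A rose by 0.45 ± 0.11 (SE; adjusted p = 0.00792). The related MYO9B differed by -0.05 ± 0.11 (SE). None of the other 9 tested passed; among them MYO3B, MYO18A, MYO5C, MYO5A, MYO1D, MYO1C, MYO1E and MYO19 lay between -0.11 and 0.27. Of the 12 not tested, MYO15B, MYO1G and MYO1H were detected on 1 or 2 arrays and 9 on none, among them the sensory cell myosins MYO7A, MYO15A and MYO3A.

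Of the 10 tested genes that handle monomers and filament ends, 1 passed (10%, against 19.5% of all genes). PFN2, the profilin best known from neurons, read 12.79, 12.74 and 12.84 in siControl and 12.55, 12.52 and 12.21 in siNR4A1. The groups were 0.19 apart. PFN2 fell by 0.36 ± 0.12 (SE, n = 3 per group; adjusted p = 0.0378). PFN1, the ubiquitous profilin, had 0.20 ± 0.12 (SE) and overlapped. The cofilins CFL1 and CFL2 had 0.15 ± 0.11 (SE) and -0.31 ± 0.14 (SE). The thymosins TMSB10, TMSB4X and TMSB15A had 0.16, less than 0.01 in size and -0.06. The remaining 2 of these 12 genes were not detected.

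Capping protein is a dimer of an alpha subunit, CAPZA1 or CAPZA2, and a beta subunit, CAPZB. CAPZA1 stood at 0.08, CAPZA2 under 0.01 in size and CAPZB at -0.08 ± 0.11 (SE), none past the threshold. The second CAPZB probe was higher by 0.63 ± 0.14 (SE), with an adjusted p of 0.00619 over all probes. It read 9.99, 10.58 and 10.26 in siControl and 10.84, 10.85 and 11.02 in siNR4A1, without overlap, whereas the first probe's groups overlapped. Which transcripts each probe reads was not analysed here.

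LIM proteins gather at Z-discs, stress fibres and adhesions. PDLIM1, which binds alpha-actinin, stood at 9.65, 9.93 and 9.93 in siControl and at 10.06, 10.31 and 10.41 in siNR4A1. Its groups were 0.13 apart, and PDLIM1 rose by 0.43 ± 0.12 (SE; adjusted p = 0.0228). LIMA1, also called EPLIN, which bundles and stabilizes filaments, read 9.31, 9.21 and 9.39 in siControl and 9.03, 8.95 and 8.77 in siNR4A1. The groups did not overlap, and LIMA1 fell by 0.39 ± 0.11 (SE; adjusted p = 0.0238). ZYX, the adhesion protein zyxin, had 0.31 ± 0.11 (SE; adjusted p = 0.0587) and missed the threshold, although all its siNR4A1 arrays were higher. PDLIM3, PDLIM5 and PDLIM7 had 0.01, -0.31 and -0.22, and PDLIM2 and PDLIM4 were not detected.

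At adhesions, TLN1, the talin that activates integrins, stood at 8.65, 8.80 and 8.59 in siControl and 8.36, 8.31 and 8.39 in siNR4A1. The groups were 0.20 apart. TLN1 fell by 0.33 ± 0.11 (SE, n = 3 per group), close to the threshold (adjusted p = 0.0448), and TLN2 was not detected. Vinculin, VCL, which binds talin under tension, had -0.12 ± 0.12 (SE) with the probe that stands for it. A second VCL probe was lower by 0.70 ± 0.17 (SE; adjusted p = 0.0103 over all probes), with 9.39, 9.82 and 8.95 in siControl and 8.71, 8.79 and 8.55 in siNR4A1. MSN, which encodes moesin, a relative of ezrin, had -0.27 ± 0.14 (SE) and overlapping groups. Among the BIN genes, a second BIN1 probe rose as well, by 0.90 ± 0.16 (SE; adjusted p = 0.00117). BIN3 differed by -0.11 ± 0.11 (SE), detected on 3 arrays, and the leukocyte form BIN2 was not detected.

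**Figure D3:**
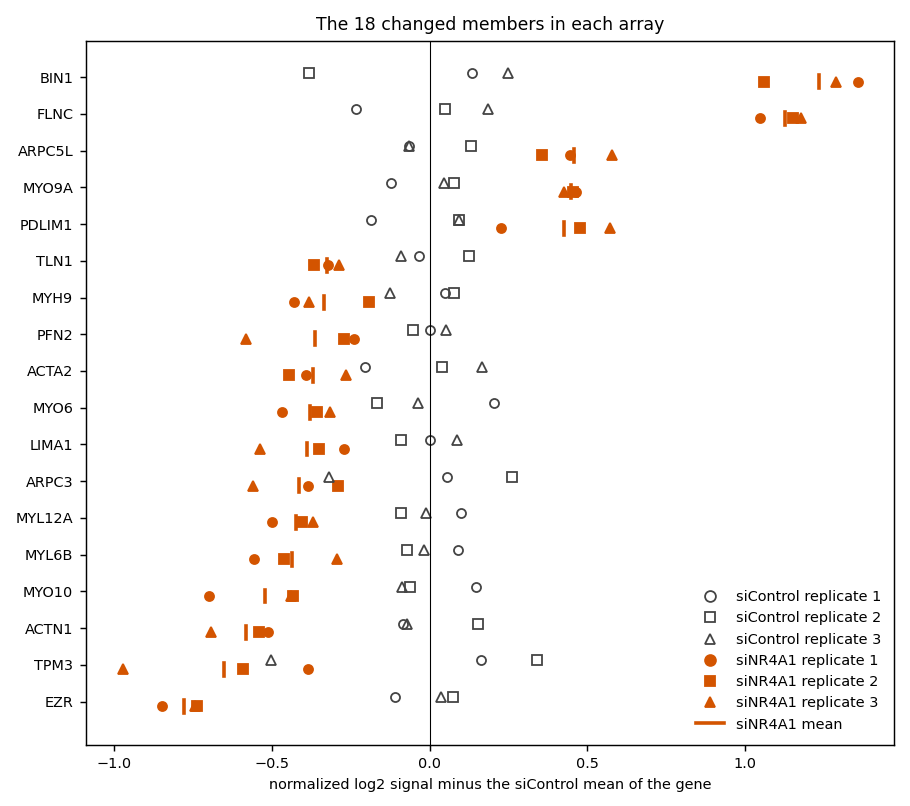
Normalized log2 signal of each array minus the siControl mean of that gene (horizontal axis) for the 18 changed members, with open grey symbols for siControl, filled orange symbols for siNR4A1, a symbol shape per replicate and an orange bar at the siNR4A1 mean. The groups are apart for 16 genes and overlap for TPM3 and ARPC3, where siControl replicate 3 lies among the siNR4A1 arrays.

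In all, 23 members had more than 1 kept probe. For 15 of them every probe lay on the same side of 0, and for 8 the probes lay on both sides. The probes split between passing and not passing for 4 genes, ACTG1, CAPZB, VCL and TPM3. Of the 99 kept member probes, 7 rose (7.07%) and 12 fell (12.1%) when all 18189 named probes were tested together, of which 8.36% rose and 8.07% fell.

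**Figure D4:**
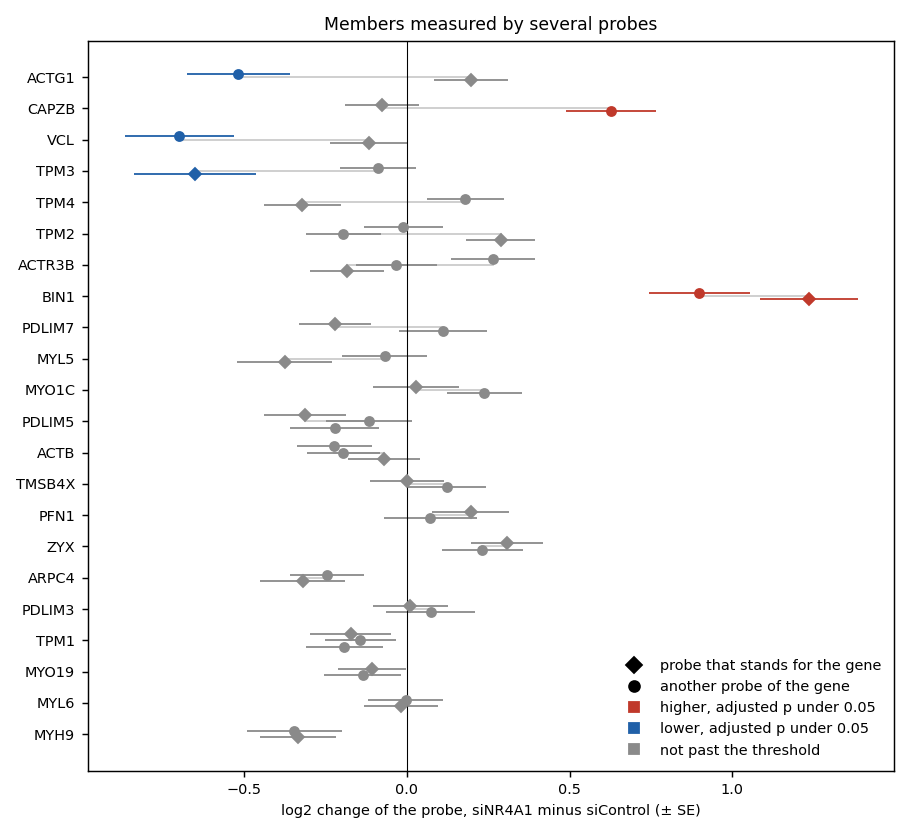
Log2 change (with SE bars) of every kept probe of 22 members with several, ordered by how far their probes lie apart; diamonds mark the probe that stands for the gene, and colour marks probes past the adjusted p of 0.05. ACTG1, CAPZB, VCL and TPM3 at the top have a coloured and a grey probe, and BIN1 has both probes in red.

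Leaving out each array in turn, the calls of BIN1, FLNC, EZR, ACTN1, MYO10 and MYO9A held all 6 times. Over these fits BIN1 ran from 1.06 to 1.35, FLNC from 1.00 to 1.23, EZR from -0.83 to -0.73, ACTN1 from -0.62 to -0.51, MYO10 from -0.57 to -0.44 and MYO9A from 0.39 to 0.50. ARPC5L lost its call without siNR4A1 replicate 3 only, in a range of 0.40 to 0.53. MYL6B, from -0.51 to -0.38, and MYL12A, from -0.46 to -0.37, lost theirs without siControl replicate 1 or siNR4A1 replicate 1. TPM3 lost it without siControl replicate 1 or 2 or siNR4A1 replicate 3 (-0.90 to -0.48), and PDLIM1 without siControl replicate 1 or siNR4A1 replicate 2 or 3 (0.33 to 0.52).

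The other 7 calls held in 1 or 2 of the 6 fits. LIMA1 (-0.45 to -0.31) kept its call without siControl replicate 2 or siNR4A1 replicate 1, and MYO6 (-0.48 to -0.29) without siControl replicate 2 or 3. ARPC3 (-0.58 to -0.28), MYH9 (-0.40 to -0.29) and TLN1 (-0.37 to -0.26) kept theirs only without siControl replicate 3. ACTA2 (-0.49 to -0.27) kept it only without siControl replicate 1, and PFN2 (-0.42 to -0.26) only without siNR4A1 replicate 1. Each of the 18 members kept its sign in all 15 alternatives. With the medians of detected probes equalized the calls of BIN1, FLNC, EZR, ACTN1, ARPC5L and ACTA2 held, and with an offset of 16 those of TPM3, PDLIM1, ARPC3, LIMA1, ACTA2, PFN2, MYH9 and TLN1 were lost.

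**Figure D5:**
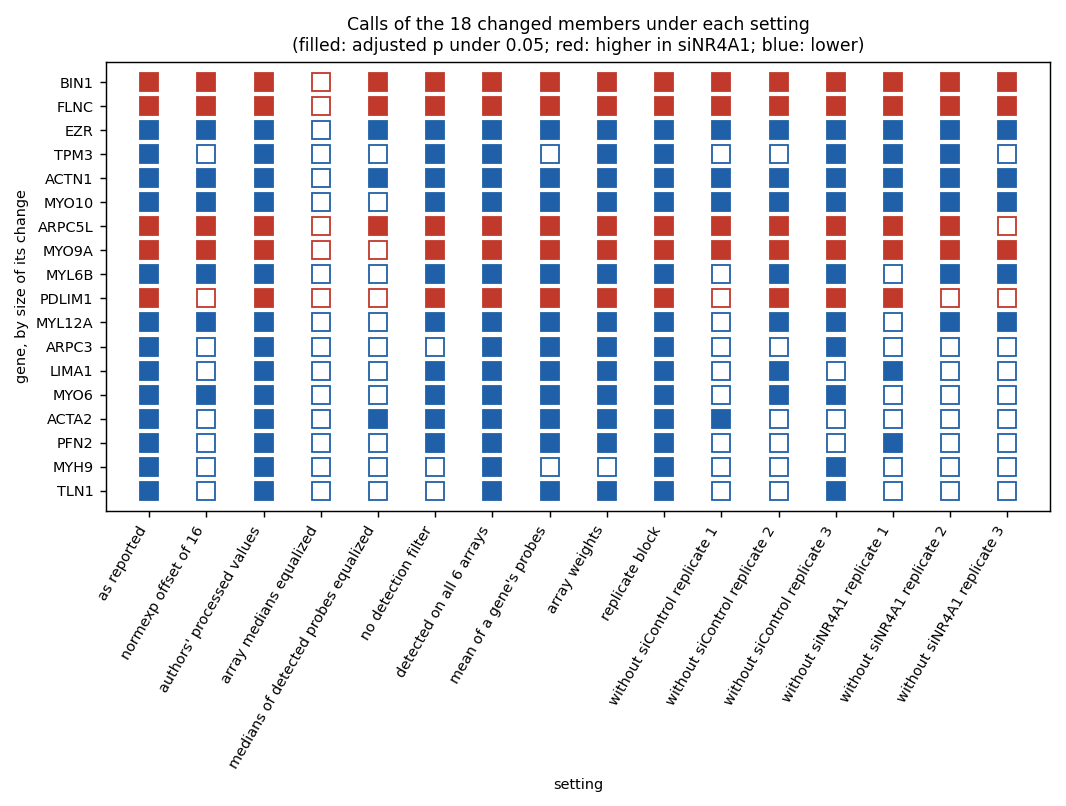
Call of each of the 18 changed members (rows, by size of change) as reported and under the 15 alternatives (columns), filled where the adjusted p was under 0.05, red for higher and blue for lower in siNR4A1. The column of equalized array medians is empty throughout, and BIN1, FLNC, EZR and ACTN1 are filled in every other column.

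Other genes of actin control were taken from lists, each given by its counts and its median log2 change, beside a median of 0.02 for all genes, of which 10.8% rose and 8.7% fell. Of 23 tested nucleation and elongation factors 2 rose (8.70%) and 4 fell (17.4%), with a median of 0.05. The formin DIAPH1, which elongates unbranched filaments, fell by 1.32 ± 0.11 (SE; adjusted p = 7.56e-07), further than any member, and FMNL2, another formin, fell by 0.58 ± 0.13 (SE). WASF3, an activator of Arp2/3, rose by 0.81 ± 0.13 (SE), and EVL, of the Ena/VASP family, by 0.43 ± 0.11 (SE).

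Of 37 tested other actin binding proteins 1 rose (2.70%) and 7 fell (18.9%), with a median of -0.08; the 21.6% changed in all stood near the 19.5% of all genes. TAGLN2, a relative of the smooth muscle protein transgelin, fell by 1.18 ± 0.14 (SE; adjusted p = 2.96e-05), MARCKSL1 by 0.77 ± 0.11 (SE) and the severing protein gelsolin, GSN, by 0.66 ± 0.13 (SE). The riser was RDX, which encodes radixin, by 0.64 ± 0.11 (SE; adjusted p = 0.000558). Radixin belongs to the same family as ezrin, which fell, and moesin, which did not pass; the differences between the 3 were not tested.

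Of 23 tested focal adhesion adaptors 5 rose (21.7%) and 2 fell (8.70%, as over all genes), with a median of less than 0.01 in size. TNS3, a tensin, fell by 1.20 ± 0.12 (SE; adjusted p = 5.16e-06). FERMT2, which encodes kindlin-2, a partner of talin in integrin activation, rose by 0.88 ± 0.12 (SE), LASP1 by 0.59 ± 0.12 (SE) and PARVA, an actin-binding parvin, by 0.49 ± 0.11 (SE). Of 6 tested SRF and cofactor genes 1 passed (16.7%, against 19.5% of all genes). This was ELK3, which fell by 0.35 ± 0.11 (SE), with an adjusted p of 0.0368. Its call held only without siControl replicate 3 when single arrays were left out and was lost under both equalized medians. SRF had -0.04 ± 0.12 (SE), MRTFA -0.14 ± 0.11 (SE) and MRTFB 0.25 ± 0.12 (SE), none of the 3 past the threshold.

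Of 37 tested membrane-curving and fission proteins other than the BIN genes 3 rose (8.11%) and 5 fell (13.5%), with a median of 0.04; the 21.6% changed in all stood near the 19.5% of all genes. EPN1, an epsin that bends membranes at clathrin-coated pits, fell by 0.83 ± 0.11 (SE; adjusted p = 8.41e-05). The BAR-domain proteins ARHGAP17 and SH3GLB2 fell by 0.59 ± 0.11 (SE) and 0.52 ± 0.11 (SE), and APPL1, also of the BAR family, rose by 0.50 ± 0.11 (SE). Apart from ELK3, the calls of the list genes named here as risen or fallen held with each array left out. With whole-array medians equalized all of them were lost. Those of FMNL2 and PARVA were also lost with the medians of detected probes equalized.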

How the data were processed

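Total RNA of 6 PANC-1 samples was labelled as biotin cRNA for Illumina BeadChips, per the labels' protocols. The submitters' processing notes name BeadStudio. Per the file headers, the first deposited table gives a linear intensity for each probe that the authors had not normalized; control probes and detection p-values are absent from it. The second deposited table is the authors' log2 data, with a column median of 6.74; quantile normalizing the logged signals gave the same numbers to within 0.005.

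From the intensities, background was corrected by normexp with an offset of 50, followed by quantile normalization and log2. A log2 change after this offset understates the change of dim genes. Detection was judged from the signals: each array's background was centred on the peak of its log2 signal density (bandwidth 0.03), signals under that peak gave its spread, and detection meant exceeding the 95% point. Of 47230 probes 19066 were detected on at least 3 arrays and 18189 of these had a gene name, updated through the RefSeq gene table where a synonym or Entrez number matched; 13717 genes resulted, each read by its brightest probe on average. The table has no genome build, so gene coordinates are not given; promoters come from RefSeq's GRCh38.p14.

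Each gene was tested between groups by limma 3.58.1 under R 4.3.3 (lmFit, eBayes), with p-values adjusted by Benjamini-Hochberg over all genes, or over all named probes for single probes. The steps were tested on simulated signals. The members and lists were chosen with earlier results of these data known. Named were the members past the threshold (up to 30), the member with the smallest p in a role without any, and up to 4 genes per list past the threshold by size, where 1 of the 6 lists and some genes are not reported here; members and probes beyond these are given so that each member is accounted for, and SRF, MRTFA and MRTFB were chosen after their values were seen. Alternatives were an offset of 16, the authors' log2 values, equalized medians of arrays or of detected probes, no detection filter or all 6 arrays, the mean of a gene's probes, array weights, a replicate block and leaving out each array.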

Additional observations from a re-analysis of the deposited data

How the results depend on the processing

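With array medians equalized 0 members and 0 genes of the 6 lists changed, as did 0 of all genes (limma), and the members' median moved to 0.0797. An unadjusted p under 0.05 was found for 1089 genes, 5 of them members. With medians of detected probes equalized 3 members rose and 3 fell (6 in all), 9 genes of the lists rose and 9 fell (18 in all), and of all genes 692 rose and 563 fell (1255 in all). With an offset of 16 there were 6 members that fell (10 changed), and 13 genes of the lists that fell, beside 938 of all genes (2032 changed). The cause was not tested. Leaving out each array gave 8 to 23 changed members, 3 to 7 rising and 4 to 16 falling, 22 to 35 changed genes of the lists, 9 to 16 rising and 12 to 19 falling, and 1500 to 2976 changed genes in all, 762 to 1685 rising and 738 to 1291 falling, with fewer arrays in each fit. The members' median ran from -0.09 to -0.06 in these fits. With the replicate number as a replicate block, 5 members rose and 14 fell, 19 changed in all, and 2999 of all genes. Deviations of same-numbered arrays correlated across genes at 0.034, 0.0836 and 0.168. The siNR4A1 replicates 2 and 3 correlated best with the siControl array of the same number. The siNR4A1 replicate 1 correlated best with siControl replicate 2, at 0.0566. These values do not settle whether the arrays were paired, and the reported fit leaves pairing out. Counts under the authors' values, no filter, all 6 arrays, array weights and the mean of a gene's probes lay within 1.5 times those reported. No sign among the called genes named was turned by any of the 15 alternatives. Signal over background limits the dim members: 26 of the 31 not tested were detected on no array.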
